A study of Mus musculus with 9 samples.

Results

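Nucleoporins, which build the nuclear pore, and the Ran-dependent carriers that move cargo through it were compared between N1E-115 cells in 3 states of the gene Tcof1. The genes were taken by symbol. They were every symbol beginning with Nup, Kpna, Kpnb, Ipo or Xpo and a digit, together with Ran, Rangap1, Ranbp1, Ranbp2, Rcc1, Tnpo1, Tnpo3, Cse1l, Seh1l, Rae1 and Aaas. On the array this gave 90 probe sets of 44 genes, out of 20380 probe sets of 12393 genes that carry exactly 1 symbol. The rule reads names and no measured value, but the set was chosen with earlier results of these data known. Tpr, a filament protein of the nuclear basket, was also on the list of symbols but had no probe set with that single symbol, and is not analysed here.

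N1E-115 is a mouse neuroblastoma line. Of its 9 arrays of total RNA, 3 came from cells that overexpressed mouse Tcof1, 3 from cells with Tcof1 knocked down and 3 from wildtype cells, and each group is lettered A, B and C. The product of Tcof1, treacle, resides in the nucleolus and supports transcription of ribosomal RNA genes, and mutations of the human gene cause Treacher Collins syndrome. How Tcof1 was raised or lowered, whether the altered cells are clones or pools, and whether the letters are separate cultures are not stated by the labels. The p-values therefore reflect array-to-array spread alone, some or all of which could be technical. All groups share 1 line, so nothing here extends beyond it.

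The nuclear pore is a ring-shaped assembly set in the nuclear envelope. Its scaffold is made of the Y complex and the inner ring, and nucleoporins rich in phenylalanine and glycine repeats fill the channel. Importins carry proteins in and exportins carry proteins and some RNAs out, and the small GTPase Ran gives the direction, because Rcc1 loads it with GTP on chromatin while Rangap1 triggers GTP hydrolysis in the cytoplasm. The same traffic brings ribosomal proteins into the nucleus and takes new ribosomal subunits out of it.

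Intensities are the deposited linear values, scaled to a common level on every array. Array medians lay between 164.1 and 185.95, and arrays correlated at 0.972 to 0.978 inside a group and at 0.956 to 0.978 across groups, on the log2 scale. For Tcof1, the overexpressing cells were called higher than wildtype only on the probe set ending in _a_at. It averaged 293.8 ± 80.9 in overexpressed, 126.6 ± 12.6 in knockdown and 149.7 ± 6.6 in wildtype arrays (SD, n = 3). Its limma adjusted p was 0.0241 for overexpressed over wildtype. The set ending in _s_at and the third set gave log2 differences of 0.63 and 0.39 without a call (adjusted p = 0.0786 and 0.187). On both, the overexpressed arrays lay above the wildtype arrays. Overexpressed over knockdown was called higher on the _a_at and _s_at sets (1.092 and 1.025, limma adjusted p = 0.0116 and 0.0137). It was not called on the third (0.333, adjusted p = 0.267). Knockdown over wildtype gave no call on any of the 3 Tcof1 probe sets (log2 difference -0.22 and adjusted p = 0.744 on the _a_at set, -0.40 and 0.51 on the _s_at set, and 0.06 and 0.934 on the third). On the _a_at set the knockdown arrays, at 134.8, 112.1 and 133.0, nevertheless lay below the wildtype arrays, at 143.1, 156.3 and 149.8, and on the other 2 sets these groups overlapped, so the probe sets neither bear out nor contradict the knockdown label. The sympathoadrenal markers Th, Dbh, Phox2a, Hand2, Chga and Chgb were bright, whereas Ddc was near background with means of 21.7, 61.4 and 43.2 in overexpressed, knockdown and wildtype arrays. Of the 12 such markers measured, 2 were called higher and 4 lower in overexpressed over wildtype. Fibroblast markers were below the median brightness of all probe sets for 8 of 9 genes and glia markers for 2 of 4. Blood and immune markers were below it for 9 of 10, among them the leukocyte marker Ptprc with means of 17.6, 16.9 and 22.7. In overexpressed over wildtype, 1 marker of each of these lists was called lower and 0 higher. Summed intensities in overexpressed, knockdown and wildtype arrays were 34426.2 to 38105.1, 42569.0 to 45552.2 and 41898.2 to 44517.6 for the sympathoadrenal and neuronal list. In the same order of groups they were 505.9 to 633.2, 755.5 to 845.0 and 569.4 to 791.0 for fibroblast markers and 455.8 to 649.8, 624.6 to 756.0 and 766.4 to 797.8 for the 4 glia markers measured. For blood and immune markers they were 894.7 to 1032.7, 1362.2 to 1481.7 and 1477.1 to 1568.0. That difference lay in Cd74, the invariant chain of antigen presentation, which averaged 373.2, 791.67 and 928.3 (-1.28 for overexpressed over wildtype, adjusted p = 0.00031). Without it the sums overlapped, at 504.9 to 647.8, 459.0 to 785.2 and 574.4 to 618.2.

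Promoters are printed for 5 genes because the results turn on them: Rcc1, Nup98, Nup62 and Kpnb1, which were higher in overexpressing than in knockdown cells, and Ran, for which no difference was called on its brightest probe set. Each is the 200 bases before the RefSeq start, 5′ to 3′ on the gene's strand, in build GRCm38.p6. They lie at chr4:132345751-132345950 on the minus strand (Rcc1), chr7:102210167-102210366 on the minus strand (Nup98, the first of 2 starts listed), chr7:44815888-44816087 on the plus strand (Nup62), chr11:97187893-97188092 on the minus strand (Kpnb1) and chr5:129019956-129020155 on the plus strand (Ran). Capitals mark an E2F-type heptamer in Rcc1, CCAAT boxes in Nup98, Nup62 and Kpnb1, and the E-box CACGTG in Ran.
Rcc1: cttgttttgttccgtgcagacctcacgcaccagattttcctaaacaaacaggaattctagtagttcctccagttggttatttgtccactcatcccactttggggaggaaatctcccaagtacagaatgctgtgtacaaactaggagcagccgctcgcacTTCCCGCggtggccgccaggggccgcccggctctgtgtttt
Nup98: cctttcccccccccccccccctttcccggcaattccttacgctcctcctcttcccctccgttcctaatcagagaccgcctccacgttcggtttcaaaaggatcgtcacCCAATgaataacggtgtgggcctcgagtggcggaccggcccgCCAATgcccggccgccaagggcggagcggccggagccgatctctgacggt
Nup62: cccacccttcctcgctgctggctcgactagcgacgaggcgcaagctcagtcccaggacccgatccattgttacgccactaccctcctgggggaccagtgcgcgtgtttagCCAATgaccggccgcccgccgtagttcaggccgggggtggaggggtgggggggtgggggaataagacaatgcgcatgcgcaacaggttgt
Kpnb1: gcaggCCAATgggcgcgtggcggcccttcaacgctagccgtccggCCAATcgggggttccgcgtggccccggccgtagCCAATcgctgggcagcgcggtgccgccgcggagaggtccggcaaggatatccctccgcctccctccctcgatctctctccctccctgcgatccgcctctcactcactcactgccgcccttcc
Ran: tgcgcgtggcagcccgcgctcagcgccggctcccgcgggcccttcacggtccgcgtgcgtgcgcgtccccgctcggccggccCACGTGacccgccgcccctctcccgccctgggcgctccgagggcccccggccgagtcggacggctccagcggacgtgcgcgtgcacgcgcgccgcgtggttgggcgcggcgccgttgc

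The heptamer of Rcc1 covered the bases from 41 to 35 before the start, and the E-box of Ran began 118 bases before it. CCAAT boxes began at 195, 155 and 122 bases before the start in Kpnb1, at 92 and 50 in Nup98 and at 90 in Nup62. The search was made on both strands, over 300 bases from 250 before to 50 after each start, for the box CCAAT, the E-box CACGTG and 4 E2F-type heptamers, namely TTCCCGC as in Rcc1, then the variant TTGGCGC, then the variant TTCGCGC, then the variant TTGCCGC, and no overlap between motifs was removed. A promoter was listed for 35 of the 44 genes. An E2F-type heptamer was found in 9 of these 35, against 17.2% of 9887 genes on the array and 9.57% of all 32851 promoters. It was present in 5 of the 11 genes called higher in overexpressed over wildtype and in 4 of the 24 others. CCAAT was found in 17 of the 35 (42.3% of array genes and 37.4% of all promoters), in 6 of the called 11 and 11 of the other 24. CACGTG was found in 7 of the 35 (10.8% and 7.15%), in 0 of the called 11 and 7 of the other 24. These counts were not tested, and a match is a stretch of letters, not a bound site.

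In overexpressed over wildtype, transport genes were called in 1 direction only. Each gene was read from its brightest probe set, values were analysed as log2(intensity + 16), a scale on which changes of dim probe sets come out too small, and a call is a Benjamini-Hochberg adjusted p under 0.05 from limma over all 22626 probe sets. Of the 44 genes, 15 were higher in overexpressing cells, 0 were lower and 29 were not called. Over all 12393 genes the share called was 5.04% higher and 6.21% lower. The 3 overexpressed arrays lay above all 3 wildtype arrays for 29 of the 44 genes and below them for 1, Nup50, against 13.8% and 16.1% of all genes. The median log2 difference was 0.27 for the transport genes, with 40 of 44 above 0, and -0.03 for all genes. In the plot of fold changes by role, the calls fall in 7 of 10 roles.

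The count of 15 depended on the arrays used. It became 8, 7 and 8 without overexpressed arrays A, B and C, 12, 16 and 13 without knockdown A, B and C, and 9, 6 and 14 without wildtype A, B and C. Calls for Kpnb1, Nup43, Nup62, Nup85 and Rcc1 remained in every one of these 9 fits. Leaving an array out also left fewer arrays in the fit.

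**Figure D1:**
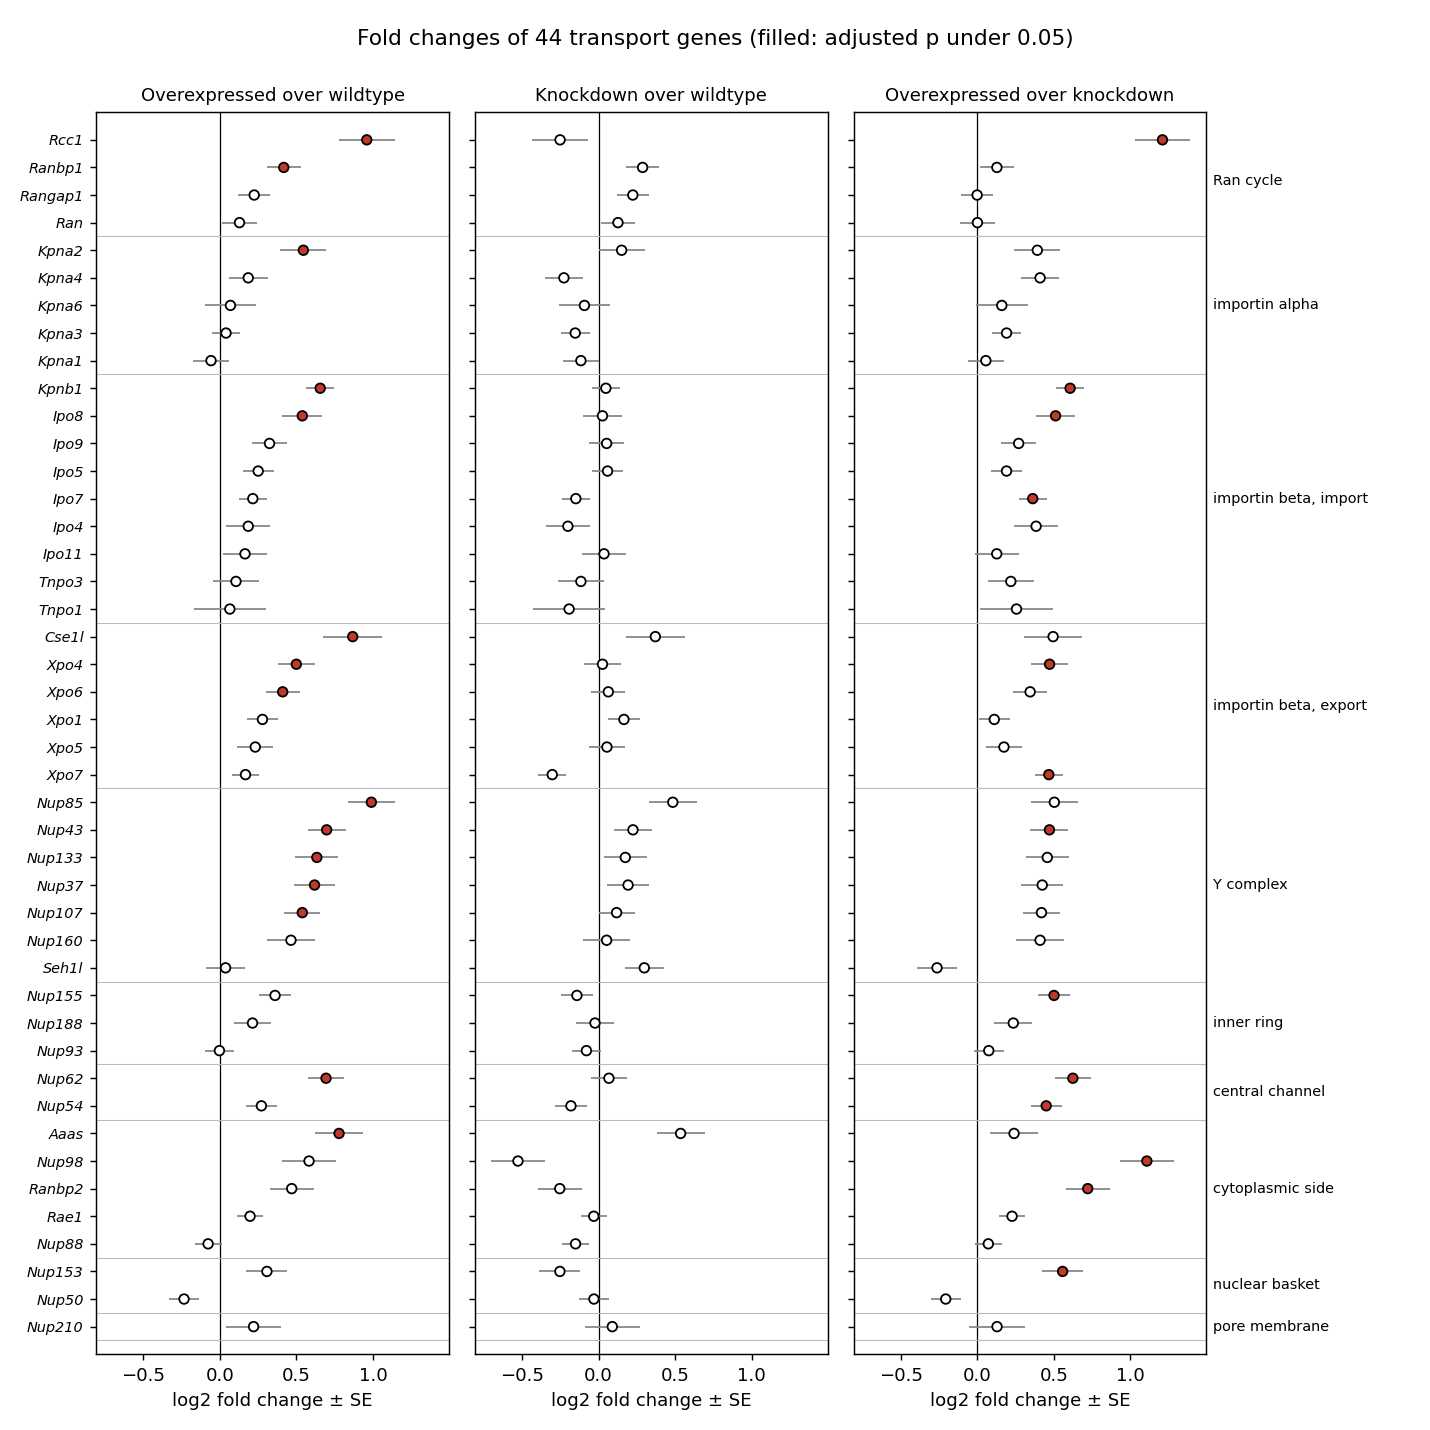
Log2 fold changes ± SE of the 44 genes on their brightest probe set, grouped by role, with 1 panel per comparison: overexpressed over wildtype on the left, knockdown over wildtype in the middle, overexpressed over knockdown on the right. Filled points are calls: 15 genes in the left panel, 0 in the middle and 13 in the right, all to the right of 0.

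In the Ran cycle, Rcc1 and Ranbp1 were called higher in overexpressed over wildtype, and Rangap1 and Ran on their brightest probe sets were not. Rcc1, the chromatin-bound exchange factor that charges Ran with GTP, read 435.5, 433.8 and 437.7 on overexpressed arrays A, B and C, against 138.4, 229.4 and 180.6 in knockdown and 239.0, 217.7 and 194.6 in wildtype arrays. The overexpressed arrays stood apart from both other groups, which overlapped each other. Rcc1 was higher in overexpressed than in wildtype cells by 0.96 ± 0.18 on the log2 scale (SE, 1.94-fold, adjusted p = 0.00852). Ranbp1, which helps Rangap1 act on carrier-bound Ran, read 8533.0, 7749.2 and 8509.6 in overexpressed, 7841.2, 7100.7 and 7731.7 in knockdown and 5315.6, 6180.4 and 7183.8 in wildtype arrays. It was higher by 0.42 ± 0.11 (adjusted p = 0.0372), with knockdown arrays overlapping both groups, and the call was lost in 7 of 9 fits that left out an array, all but those without knockdown B and wildtype C (adjusted p up to 0.115). Rangap1, the GTPase activator, read 1331.3 to 1450.0 in overexpressed, 1309.9 to 1458.9 in knockdown and 1006.0 to 1299.2 in wildtype arrays. Its difference of 0.22 ± 0.11 was not called (adjusted p = 0.24), although neither altered group overlapped the wildtype arrays.

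Ran showed no called difference on its brightest probe set. The values were 17326.8, 17238.9 and 16958.7 in overexpressed, 19342.8, 15244.7 and 17119.6 in knockdown and 13795.2, 17311.0 and 16238.1 in wildtype arrays, so all groups overlapped. The difference from wildtype was 0.13 with a 95% interval from -0.12 to 0.38 (adjusted p = 0.588). Ran has 6 probe sets, whose differences ran from -0.08 to 0.48, the lowest on a dim set with an interval from -0.69 to 0.53. The 1 that was called, with a name ending in _at, read 1867.6, 1832.9 and 1562.3 in overexpressed, 1308.7, 1383.9 and 1431.2 in knockdown and 1081.2, 1268.2 and 1422.3 in wildtype arrays (0.48 ± 0.11, adjusted p = 0.0235). The brightest set is of the _x_at type, which can match similar sequences, so near-identical copies of Ran may contribute to it. What Ran did is therefore uncertain.

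**Figure D2:**
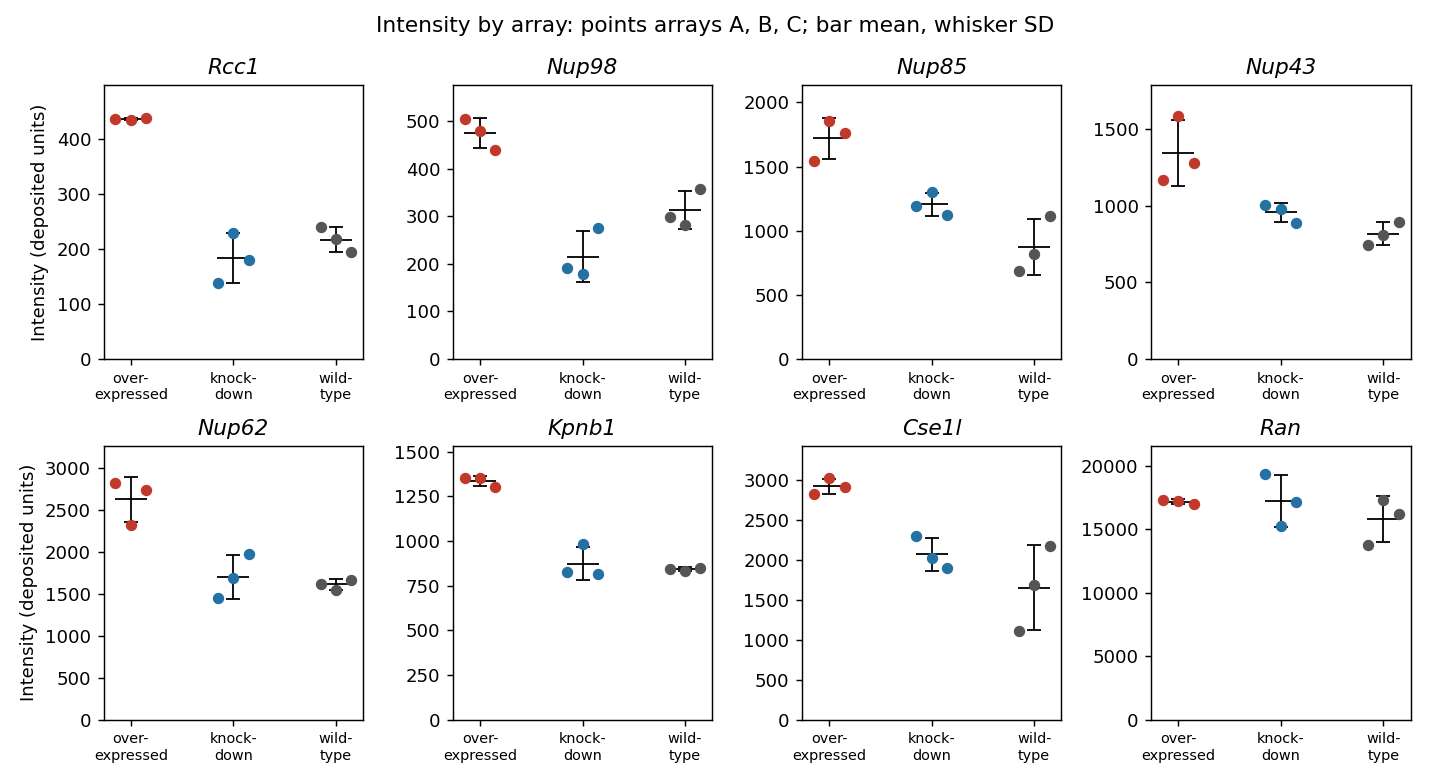
Deposited intensity of 8 transport genes on each array, with points for arrays A, B and C, a bar at the mean and a whisker of 1 SD (n = 3 per group); each axis starts at 0. The overexpressed arrays lie above both other groups for the genes shown except Ran, whose groups overlap.

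Among carriers for import, the core pair of the classical pathway was higher in overexpressing cells. Kpnb1, importin beta 1, read 1352.7, 1353.0 and 1301.5 in overexpressed, 825.2, 981.1 and 817.1 in knockdown and 846.2, 830.2 and 851.2 in wildtype arrays. Overexpressed arrays were above all the others, and knockdown and wildtype arrays interleaved. The difference from wildtype was 0.65 ± 0.09 (1.57-fold, adjusted p = 0.00212), the smallest adjusted p among the 44 brightest probe sets. Of its 4 probe sets 2 were called, and the 4 values lay between 0.33 and 0.72. Kpna2, an importin alpha adaptor that recognises classical nuclear localisation signals, read 4683.8, 4631.8 and 4296.1 in overexpressed, 3548.6, 3042.7 and 3797.5 in knockdown and 2715.4, 2698.6 and 4076.6 in wildtype arrays. Its difference of 0.54 ± 0.15 was called (adjusted p = 0.0452), with wildtype C close to the overexpressed arrays. The call was lost in 7 of 9 fits that left out an array, all but those without knockdown B and wildtype C, with adjusted p up to 0.169.

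The other 4 importin alpha genes, Kpna1, Kpna3, Kpna4 and Kpna6, had differences from -0.06 to 0.19 and no call. Kpna1 was the most uniform across its probe sets: all 5 lay between -0.19 and -0.04 (adjusted p = 0.853 on the brightest). Of 9 import carriers of the importin beta family, 2 were called, Kpnb1 and Ipo8, against 5.04% of all genes called higher. All 9 had values above 0, with a median of 0.21. Ipo8 read 578.3, 686.1 and 640.5 in overexpressed, 439.4, 472.5 and 408.8 in knockdown and 378.3, 423.8 and 500.5 in wildtype arrays, with a difference of 0.54 ± 0.13 (adjusted p = 0.0262). Its second probe set gave -0.15 with a 95% interval from -0.55 to 0.25, and the call was lost without overexpressed B or C or wildtype A or B (adjusted p up to 0.0976).

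Tnpo1, which imports hnRNP proteins, was the least even of the import carriers across arrays. It read 874.8, 1032.6 and 477.9 in overexpressed, 534.5, 754.2 and 621.6 in knockdown and 694.0, 708.4 and 767.2 in wildtype arrays, so overexpressed C was the lowest of all 9 and overexpressed B the highest. Its difference of 0.07 had a 95% interval from -0.46 to 0.59 (adjusted p = 0.926), which leaves a difference of the size seen for Kpna2 inside it. Ipo5 and Ipo7, importers of ribosomal proteins among other cargo, had differences of 0.25 and 0.21 without a call. A second Ipo5 probe set, however, read 1522.7, 1231.6 and 1290.2 in overexpressed, 887.5, 813.6 and 714.6 in knockdown and 784.9, 806.9 and 859.4 in wildtype arrays, a difference of 0.71 ± 0.11 (adjusted p = 0.00355). The third Ipo5 set was dim, with means of 51.0, 82.6 and 61.5 in overexpressed, knockdown and wildtype arrays, and its interval from -1.14 to 0.55 holds the value of the brightest set.

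Of 6 exportins, 3 were called higher in overexpressed over wildtype, against 5.04% of all genes. For all 6 the overexpressed arrays lay above the wildtype arrays, against 13.8% of all genes. Cse1l, the exportin that returns importin alpha to the cytoplasm, read 2834.0, 3025.9 and 2919.6 in overexpressed, 2303.2, 2026.3 and 1899.1 in knockdown and 1109.6, 1682.6 and 2177.8 in wildtype arrays. Wildtype A lay far below wildtype C, and the knockdown values lay among or above them. The difference from wildtype was 0.87 ± 0.19 (1.82-fold, adjusted p = 0.0174), and it was lost without overexpressed A or B or wildtype B (adjusted p up to 0.0601).

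Xpo4, which exports the translation factor eIF5A, read 461.4, 466.2 and 466.5 in overexpressed, 338.9, 329.0 and 323.2 in knockdown and 293.3, 322.5 and 360.0 in wildtype arrays. Overexpressed arrays agreed within a few units and stood above the rest, with a difference of 0.50 ± 0.12 (adjusted p = 0.0254) that was lost when any overexpressed array or wildtype A or B was left out (up to an adjusted p of 0.0842). Xpo6, the exporter of profilin-bound actin, read 877.6, 1002.1 and 1036.6 in overexpressed, 714.6, 854.5 and 717.1 in knockdown and 665.0, 763.3 and 753.7 in wildtype arrays. Its difference of 0.41 ± 0.11 (adjusted p = 0.0433) passed in only 1 of the 9 fits that left out an array, the one without knockdown B.

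Xpo1, the main exporter of proteins with leucine-rich signals and of ribosomal subunits, was not called on its brightest probe set. That set read 2763.2, 3010.2 and 2470.7 in overexpressed, 2696.9, 2589.5 and 2328.3 in knockdown and 2031.9, 2363.4 and 2391.2 in wildtype arrays (0.28 ± 0.10, adjusted p = 0.127). Another Xpo1 set was called, with 1895.0, 1902.8 and 2129.4 in overexpressed, 1397.6, 1484.4 and 1388.0 in knockdown and 1348.2, 1427.6 and 1533.0 in wildtype arrays (0.46 ± 0.09, adjusted p = 0.00852). Xpo5, which carries microRNA precursors, and Xpo7 had differences of 0.23 and 0.17 and adjusted p of 0.282 and 0.319.

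The Y complex, the main scaffold of the pore, held the most calls of any role. Of its 7 genes that fit the symbol rule, 5 were higher in overexpressed over wildtype, against 5.04% of all genes. The median of the 7 was 0.62. Sec13 and Ahctf1, also assigned to this complex but outside the rule, were not called (0.24 and 0.17, adjusted p = 0.192 and 0.564). Nup85 read 1540.9, 1853.8 and 1762.7 in overexpressed, 1192.7, 1302.3 and 1123.6 in knockdown and 685.4, 819.6 and 1113.5 in wildtype arrays. Knockdown values lay between the other groups without overlapping them. The difference from wildtype was 0.99 ± 0.16 (1.98-fold, adjusted p = 0.00333), and the second Nup85 probe set gave 1.29 ± 0.21 (adjusted p = 0.00359).

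Nup43 read 1163.5, 1581.1 and 1277.1 in overexpressed, 1003.9, 979.4 and 883.3 in knockdown and 745.6, 809.1 and 894.4 in wildtype arrays. Its 2 probe sets agreed, at 0.70 ± 0.12 (adjusted p = 0.00618) and 0.72 ± 0.09 (adjusted p = 0.00147). Nup133, Nup37 and Nup107, all scaffold subunits, were higher by 0.63 ± 0.14, 0.62 ± 0.14 and 0.54 ± 0.12, with adjusted p of 0.0174, 0.0174 and 0.0169. Nup107 read 1893.6, 1989.0 and 1768.2 in overexpressed, 1536.7, 1431.6 and 1254.3 in knockdown and 1098.3, 1347.7 and 1453.0 in wildtype arrays. Nup133 read 1434.5 to 1639.2 in overexpressed, 1009.5 to 1200.7 in knockdown and 786.5 to 1184.3 in wildtype arrays, and Nup37 read 1318.5 to 1471.9, 939.6 to 1230.3 and 775.8 to 1078.3 in those groups. Overexpressed arrays lay above both other groups for all 3, and knockdown and wildtype arrays overlapped. Among wildtype arrays A was the lowest and C the highest for Nup85, Nup43, Nup133, Nup37 and Nup107.

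The calls of Nup107, Nup133 and Nup37 were lost in 2, 3 and 4 of the 9 fits that left out an array, with adjusted p up to 0.0654, 0.0669 and 0.0653. The arrays whose removal did so were overexpressed A and B for Nup107, overexpressed B and C and wildtype B for Nup133, and overexpressed A and C and wildtype A and B for Nup37. Of the 4 Nup133 probe sets 1 was called, and the 4 values lay between 0.24 and 0.63, the lowest on a dim set with group means of 48.73 to 63.97. Nup160 had a value of 0.46 without a call (adjusted p = 0.0896), on arrays that did not overlap.

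Seh1l, a subunit that also serves in the GATOR complex of nutrient signalling, gave different answers on different probe sets. Its brightest set read 716.2, 823.2 and 780.6 in overexpressed, 944.9, 1108.3 and 764.5 in knockdown and 735.8, 778.5 and 742.4 in wildtype arrays (0.04 ± 0.13 for overexpressed over wildtype, adjusted p = 0.923). A second of its 6 sets read 639.9, 585.0 and 587.1 in overexpressed, 458.5, 363.7 and 447.2 in knockdown and 347.7, 384.2 and 413.8 in wildtype arrays (0.64 ± 0.13, adjusted p = 0.0102). The 6 sets ranged from 0.04 to 0.64.

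**Figure D3:**
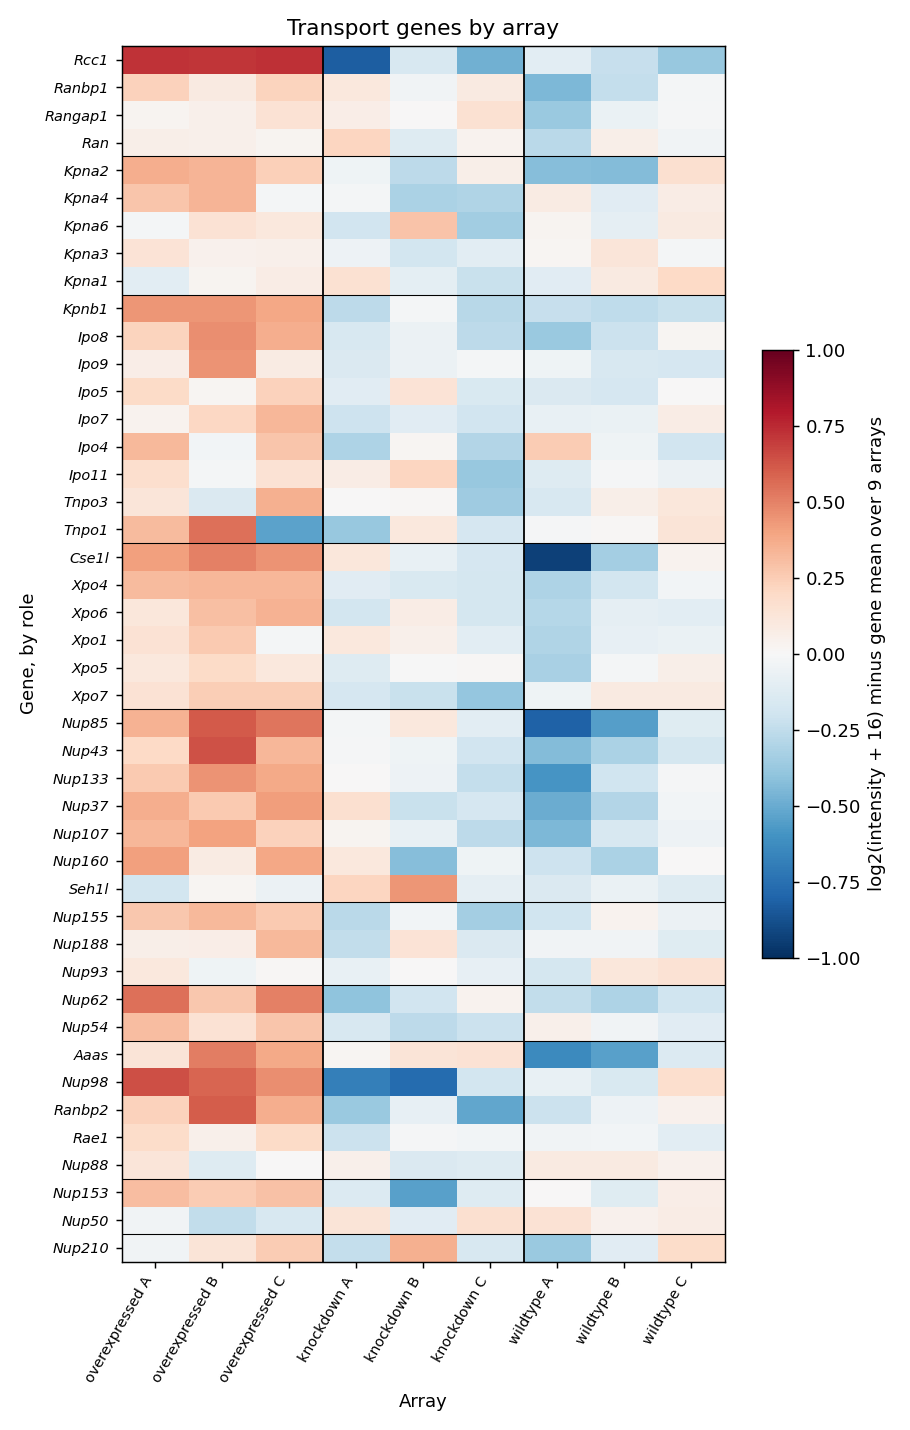
Each gene's log2(intensity + 16) on each of the 9 arrays minus its mean over the 9, from blue (lower) to red (higher), with genes grouped by role and the colour scale limited to 1 in either direction. Rcc1 and Nup98 are red in all 3 overexpressed arrays, and wildtype array A is the bluest wildtype column for Cse1l, Nup85, Nup133 and Nup37.

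In the channel, Nup62, the repeat nucleoporin at the centre of the pore, was higher in overexpressing cells on 3 of its 4 probe sets. The brightest read 2826.5, 2321.4 and 2739.9 in overexpressed, 1453.6, 1688.1 and 1976.6 in knockdown and 1622.8, 1549.2 and 1672.6 in wildtype arrays. Overexpressed arrays stood above all others, and the difference from wildtype was 0.69 ± 0.12 (1.62-fold, adjusted p = 0.00504), and the other 2 called sets gave 0.50 ± 0.12 and 0.84 ± 0.12. The fourth set was dim, with group means of 24.4 to 59.5 and an interval from -0.60 to 2.09. Nup54, its partner in the channel complex, read 713.6, 635.1 and 698.6 in overexpressed, 513.3, 477.6 and 492.5 in knockdown and 597.1, 561.5 and 529.3 in wildtype arrays. The 3 groups did not overlap, and overexpressed over wildtype, at 0.27 ± 0.10, was not called (adjusted p = 0.131). Its other 2 probe sets gave -0.39 ± 0.37 and 0.07 ± 0.28 on groups that overlapped, without a call.

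Of the 5 genes among the 44 that were grouped here under the cytoplasmic side, only Aaas was called on its brightest probe set. Of all genes, 5.04% were called higher. Gle1, at the same face but outside the 44, was called higher and is given below. Aaas encodes ALADIN, whose human counterpart is mutated in triple A syndrome. It read 481.0, 631.8 and 574.0 in overexpressed, 444.7, 480.9 and 486.4 in knockdown and 276.1, 295.9 and 397.9 in wildtype arrays, so both altered groups lay above wildtype. Overexpressed over wildtype was 0.78 ± 0.16 (1.71-fold, adjusted p = 0.0111, and 0.0509 without wildtype B).

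Nup98, a repeat nucleoporin that binds Rae1 and acts in mRNA export, fell short of a call at 0.58 ± 0.18 (adjusted p = 0.0635), as did Ranbp2, the large protein of the cytoplasmic filaments, at 0.47 ± 0.14 (adjusted p = 0.0687). A second Ranbp2 probe set was called at 0.61 ± 0.13 (adjusted p = 0.0164). Rae1 read 2506.7 to 2771.0 in overexpressed, 2082.5 to 2405.9 in knockdown and 2256.6 to 2375.0 in wildtype arrays (0.20 ± 0.09, adjusted p = 0.192). Nup88 had a value of -0.08 (adjusted p = 0.698).

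Among the 44 genes, none of the inner ring, the basket or the pore membrane was called in overexpressed over wildtype. Ndc1, a pore membrane gene outside the 44, was called higher and is given below. Nup155, an inner-ring scaffold protein, came closest with 1152.9, 1198.1 and 1147.7 in overexpressed, 787.5, 932.8 and 747.2 in knockdown and 829.5, 975.0 and 915.4 in wildtype arrays (0.36 ± 0.11, adjusted p = 0.0575). Nup93, of the same ring, had a difference of -0.003 with a 95% interval from -0.22 to 0.21. In the basket, Nup153, which anchors the structure, had a value of 0.31 (adjusted p = 0.197). Nup50, a Ran and importin alpha cofactor, was the 1 gene whose overexpressed arrays all lay below wildtype: 1233.8, 1064.0 and 1131.3 against 1397.6, 1304.9 and 1334.2, with knockdown arrays at 1383.5, 1166.5 and 1415.9 overlapping both. Its difference of -0.23 ± 0.10 was not called (adjusted p = 0.185). That is its brightest probe set, and its other sets gave 0.12 and -0.006 on groups that overlapped. The membrane nucleoporin Nup210 had a value of 0.22 (adjusted p = 0.552).

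Counted over probe sets, 25 of the 90 were higher and 0 lower in overexpressed over wildtype, against 4.52% of all 22626 probe sets called higher. At least 1 called set was found for 20 genes, of which Ipo5, Ran, Ranbp2, Seh1l and Xpo1 were called only on a set other than the brightest. A gene with more sets, up to 6 here, has more chances of a call. The share of all genes with a called set was not counted, so the 20 has no background beside it. Different sets of a gene can read different transcript ends or copies, and which set is nearer to the gene's level was not tested.

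**Figure D4:**
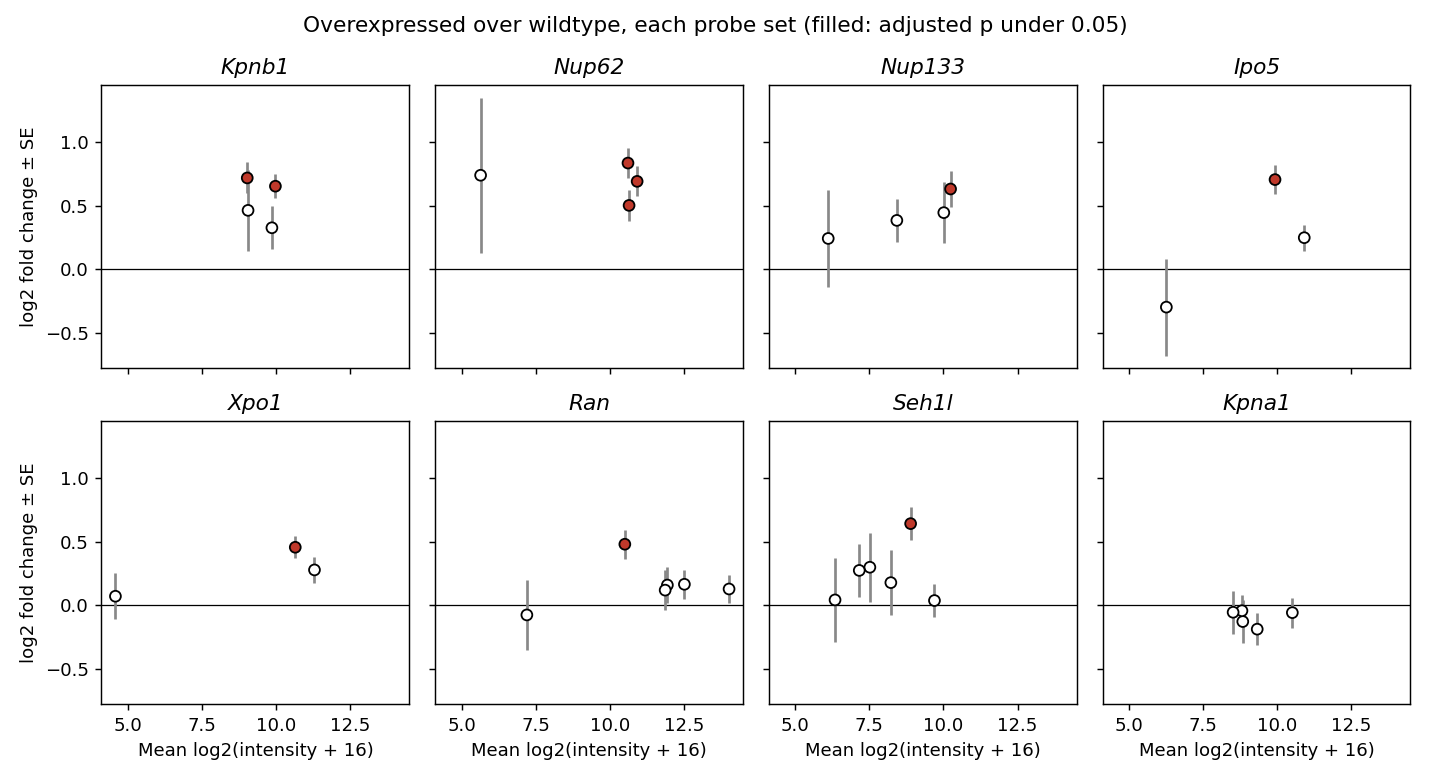
Overexpressed over wildtype log2 fold change ± SE of every probe set of 8 genes, placed by its mean log2(intensity + 16) over 9 arrays; filled points are calls. Nup62 has 3 called sets of 4, whereas Xpo1, Ran, Seh1l, Ipo5 and Nup133 have 1 called set each and Kpna1 has 0 of 5.

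Knockdown over wildtype gave no call among the transport genes. Of 44 genes, 0 were higher and 0 lower by limma, and 6 had an unadjusted p under 0.05. Over all genes 0.0% were called higher and 0.00807% lower, and over all 22626 probe sets there were 3 calls and 2462 with an unadjusted p under 0.05. The knockdown arrays lay above wildtype for 3 genes and below for 6, against 9.68% and 6.69% of all genes. The median log2 difference was 0.03, against 0.04 for all genes. A missing call at 3 arrays a group does not show that levels were equal, and, as given above, Tcof1 itself was not called lower in these cells.

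On brightest probe sets, the 3 genes of smallest p were Aaas, Xpo7 and Nup85. The second Nup43 set had the smallest adjusted p of all 90 (0.36 ± 0.09, adjusted p = 0.217), with knockdown arrays above wildtype. Aaas had a value of 0.54 ± 0.16 (adjusted p = 0.27) and Nup85 of 0.49 ± 0.16 (adjusted p = 0.303), both on arrays that did not overlap wildtype. Xpo7, a carrier with a broad range of cargo, read 1047.2, 1005.5 and 896.9 in knockdown and 1141.6, 1250.5 and 1250.5 in wildtype arrays (-0.30 ± 0.09, adjusted p = 0.278). Among brightest sets, Nup98 had the most negative value, -0.53 ± 0.18 (adjusted p = 0.315). It read 190.8, 178.1 and 276.0 in knockdown and 299.3, 281.5 and 357.3 in wildtype arrays. Its knockdown C lay within a few units of wildtype B.

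Overexpressed over knockdown called 13 of the 44 genes higher and 0 lower, against 3.56% and 5.25% of all genes. Overexpressed arrays lay above all knockdown arrays for 25 genes and below for 0, against 12.7% and 17.7% of all genes. The median log2 difference was 0.35, with 41 of 44 genes above 0, and -0.08 for all genes. Of the 90 probe sets 22 were called higher, against 3.43% of all, and Ipo5, Nup85, Seh1l and Xpo1 were called only on a set other than the brightest. This comparison uses the same overexpressed arrays as the one with wildtype, so the counts are not separate evidence. Without overexpressed A, B and C the count was 7, 6 and 8, without knockdown A, B and C it was 5, 7 and 6, and without wildtype A, B and C it was 17, 9 and 17.

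Rcc1 and Nup98 had the largest called differences between overexpressed and knockdown cells. Rcc1 differed by 1.21 ± 0.18 (2.31-fold, adjusted p = 0.00405). Nup98 read 503.4, 479.6 and 440.2 in overexpressed arrays, against the knockdown values given above, a difference of 1.11 ± 0.18 (2.16-fold, adjusted p = 0.00508). Its wildtype arrays lay between the 2 groups. Both calls, and those of Kpnb1 (0.61 ± 0.09, adjusted p = 0.00437) and Xpo7 (0.47 ± 0.09, adjusted p = 0.0129), remained in each of the 9 fits that left out an array.

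Beside Nup98, the genes called here but not against wildtype on their brightest set were Ranbp2, Nup153, Nup155, Nup54, Ipo7 and Xpo7. Ranbp2 read 657.3, 857.2 and 722.1 in overexpressed and 429.0, 526.4 and 384.3 in knockdown arrays (0.72 ± 0.14, adjusted p = 0.0148). Nup153 read 566.7, 545.2 and 560.2 in overexpressed and 409.9, 306.8 and 413.1 in knockdown arrays (0.56 ± 0.13, adjusted p = 0.0303). Both are pore proteins that reach away from the scaffold, into the cytoplasm and the nucleus. Nup155 differed by 0.50 ± 0.11 (adjusted p = 0.0187), Nup54 by 0.45 ± 0.10 (adjusted p = 0.0238) and Ipo7 by 0.36 ± 0.09 (adjusted p = 0.0367). Whether these genes differ more from knockdown than from wildtype is the knockdown over wildtype comparison, in which none was called.

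The remaining calls were Nup62 (0.62 ± 0.12, adjusted p = 0.0113), Ipo8 (0.51 ± 0.13, adjusted p = 0.0385), Xpo4 (0.47 ± 0.12, adjusted p = 0.038) and Nup43 (0.47 ± 0.12, adjusted p = 0.0433). The second Ipo8 set gave 0.05 and the other Nup54 sets 0.16 and 0.40 on overlapping groups, without a call. Second sets of Nup155 (0.34) and Xpo7 (0.38) were also uncalled. Of 4 sets each, 3 were called for Nup62 and 2 for Kpnb1, and both sets were called for Ranbp2 and Nup43. Removal of any overexpressed or knockdown array, or of wildtype B, ended between 4 and 8 of the 13 calls, and removal of wildtype A or C ended 0. Apart from Rcc1, Nup98, Kpnb1 and Xpo7, each of the 13 lost its call in at least 1 fit without an array. That was 1 of 9 for Nup62 (overexpressed A, adjusted p = 0.0526) and 3 of 9 for Ranbp2 (overexpressed B and knockdown A and C, up to 0.058). It was 4 for Nup155, 5 for Nup54 and Nup153, 6 for Ipo7 and Nup43, and 7 for Ipo8 and Xpo4, with adjusted p up to 0.0642, 0.0964, 0.101, 0.112, 0.128, 0.123 and 0.112. Of the 7 Y complex genes that fit the symbol rule, 1 was called, against 3.56% of all genes called higher. Their median was 0.42, and Seh1l had a value of -0.26 (adjusted p = 0.262).

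The array-level medians give the same contrast without a model. Each gene's log2 value was set against its mean over the 9 arrays, and the median over the 44 genes was 0.20, 0.25 and 0.26 on overexpressed A, B and C. It was -0.10, -0.05 and -0.17 on knockdown and -0.19, -0.09 and -0.01 on wildtype A, B and C. Overexpressed arrays lay above all others, and knockdown and wildtype overlapped. The median of all genes stayed between -0.06 and 0.08 on every array.

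Markers of proliferating cells moved with this. Of 15 measured, such as the replication genes Mcm5 and Pcna, 14 were higher in overexpressed over wildtype with a list median of 1.08. In knockdown over wildtype 0 were called, with a median of 0.67, and in overexpressed over knockdown 5 were higher, with a median of 0.52. Their summed intensity was 32396.6 to 36599.9 in overexpressed, 22387.2 to 23693.1 in knockdown and 12433.3 to 19014.2 in wildtype arrays, and no group overlapped another. The medians by array were 0.57, 0.69 and 0.58 in overexpressed, 0.08, 0.01 and 0.02 in knockdown and -1.01, -0.52 and -0.28 in wildtype arrays. Knockdown arrays thus lay above wildtype for these markers, and the 2 groups overlapped for the transport genes. The part of proliferation in the differences of the transport genes was not tested.

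**Figure D5:**
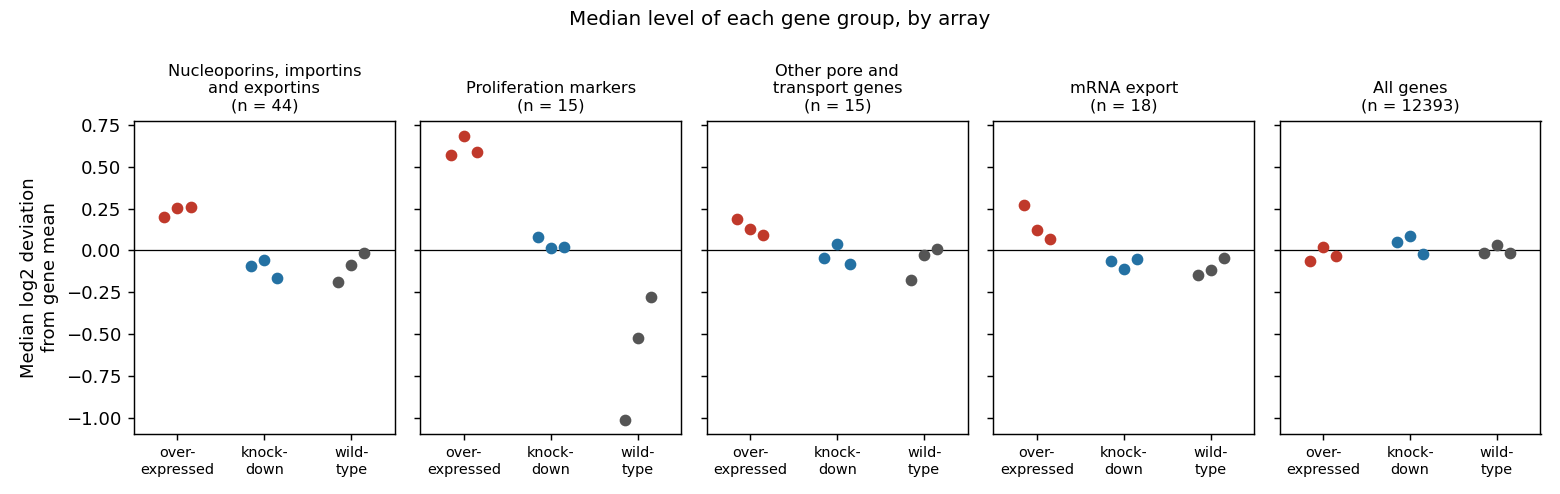
Median log2 deviation from each gene's 9-array mean, by array, for the 44 transport genes, 15 proliferation markers, 15 other pore and transport genes, 18 mRNA export genes and all 12393 genes. The 3 overexpressed arrays are the highest in the first 4 panels, and all genes lie near 0.

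Of the lists of genes at or next to the pore, only the lamina and inner membrane list, given last, had calls in both directions. Over all genes, 5.04% were called higher and 6.21% lower in overexpressed over wildtype. Of 15 other pore and transport genes measured, out of 19 listed, 3 were higher in overexpressed over wildtype and 0 lower: Gle1, an mRNA export factor at the cytoplasmic face (0.62 ± 0.12, adjusted p = 0.00808), Ndc1, a membrane anchor of the pore (0.83 ± 0.20, adjusted p = 0.0286), and Rangrf, a Ran-binding protein (0.37 ± 0.10, adjusted p = 0.0474). Of 18 mRNA export genes measured out of 24, 5 were higher and 0 lower. The RNA helicases Ddx39a and Ddx39b differed by 1.01 ± 0.11 (adjusted p = 0.000668) and 0.74 ± 0.09 (adjusted p = 0.000967). The adaptor Alyref differed by 0.90 ± 0.15 (adjusted p = 0.00398), the THO subunit Thoc1 by 0.66 ± 0.14 (adjusted p = 0.0137) and the export cofactor Nxt1 by 0.51 ± 0.14 (adjusted p = 0.0406).

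Of 14 lamina and inner membrane genes measured out of 15, 4 were higher and 2 lower. Their median deviations by array, 0.05, 0.19 and 0.10 in overexpressed arrays A, B and C, overlapped those of 0.05, 0.06 and 0.03 in wildtype arrays. Tmpo, a lamin-binding protein, Banf1, a chromatin tether, and the B-type lamins Lmnb1 and Lmnb2 were higher by 0.90, 0.45, 0.65 and 1.10 (adjusted p = 0.000813, 0.00889, 0.0383 and 0.0452). Sun2, which links the envelope to the cytoskeleton, averaged 1129.37 in overexpressed, 1738.07 in knockdown and 1909.23 in wildtype arrays (-0.74 ± 0.12, adjusted p = 0.00468). Lemd2, an inner membrane protein, was lower by -0.53 ± 0.14 (adjusted p = 0.0437). In overexpressed over knockdown the counts were 1 higher for other pore genes (Gle1, 0.49 ± 0.12, adjusted p = 0.0289), 4 higher for mRNA export (Ddx39a, Thoc1, Alyref and Ddx39b, at 0.69, 0.73, 0.65 and 0.46) and 2 higher and 1 lower for the lamina list. Those 3 were Tmpo (0.79 ± 0.10), Tor1a (0.84 ± 0.17) and Sun2 (-0.61 ± 0.12). In knockdown over wildtype none of these 3 lists had a call.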

How the data were processed

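Total RNA of 9 samples was measured on a 1-colour array, 3 per group (overexpressed, knockdown, wildtype). The authors deposited linear intensity values, 1 per probe set and array. The labels name no software, background correction or scaling method. A mean trimmed by 2% at each end came to 500.18 to 500.2 on every array, so the values were deposited after scaling to one target. No detection calls were used, and no filter on brightness was applied. Precision is limited by the number of arrays.

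Of 22690 probe sets, 64 controls were left out of the tests. Of the other 22626, 20380 had 1 symbol, 691 several and 1555 none in the platform annotation, and only the first were named. All 44 member genes matched RefSeq (GRCm38.p6) by gene identifier, with 0 symbols changed. Promoters come from RefSeq.

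limma 3.58.1 in R 4.3.3 (lmFit, eBayes with trend) was fitted to log2(intensity + 16) of all 9 arrays with a mean per group. Benjamini-Hochberg adjustment ran over all 22626 probe sets per contrast, with calls at an adjusted p under 0.05. A gene was represented by the probe set of highest mean log2 value. The fit was also run on simulated data with independent noise, which cannot show how technical spread shared by arrays acts. The smallest differences called here were below those added to the simulated data.

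The members and lists were chosen with earlier results of these data known. Genes were named if called in any comparison, on any probe set, if they belonged to a core of the Ran cycle and the main carriers and nucleoporins, or if they had the smallest p where fewer than 3 were called. Of the lists beside them, at most 4 genes of smallest p were named per comparison. Nxt1, Lmnb2, Lemd2, Ddc, Ptprc, Sec13, Ahctf1 and the uncalled members outside that core were named after their values were seen. Alternatives were pseudocounts of 1 and 64, a common array median, quantile normalization, no trend, only 2 groups in the fit, a filter at the 40th percentile of brightness, the mean of all probe sets of a gene, leaving out probe set types that can match several sequences, the letter as a block, and each array left out.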

Additional observations from a re-analysis of the deposited data

How the results depend on the processing

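The number of transport genes called higher was 15 in overexpressed over wildtype and 13 in overexpressed over knockdown. Without a mean-variance trend it was 7 and 4, and all probe sets called then numbered 1339 and 834, against 2169 and 1713. With only 2 groups in the fit it was 13 and 17, so which comparison had more calls depended on the setting. With an array left out, the counts of transport genes lay between 6 and 16 and between 5 and 17, and the counts of all probe sets between 1090 and 2404 and between 704 and 2048. In knockdown over wildtype, 3 probe sets were called. That count was 1 with 2 groups in the fit, 1 without the trend, 1 with quantile normalization, 46 above the 40th percentile of brightness and 0 to 103 with an array left out, the 103 without wildtype C. The count of transport genes called was 0 in that comparison under every alternative, and 0 were called lower in any comparison. The cause of these shifts was not tested, except that leaving out an array leaves fewer samples.

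Over the 17 alternatives that read a gene from the same probe set, 5 of the 15 calls against wildtype (Kpnb1, Nup43, Nup62, Nup85 and Rcc1) and 3 of the 13 against knockdown (Kpnb1, Nup98 and Rcc1) remained in all, and 0 changed sign. The median log2 difference of the 44 genes lay between 0.26 and 0.33 in overexpressed over wildtype and between 0.32 and 0.42 in overexpressed over knockdown; in knockdown over wildtype it lay between -0.03 and 0.05 and so changed sign.

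Deviations of arrays with the same letter correlated at -0.01 to 0.10 in 9 pairs, and of arrays with other letters at -0.12 to 0.10 in 18. These ranges overlapped, but most same-letter values were above 0, so the check does not settle whether letters are pairs. The main fit did not take them as pairs. With the letter as a replicate block, 17 and 11 transport genes were called higher, and all probe sets called numbered 2128 in overexpressed over wildtype, 1600 in overexpressed over knockdown and 0 in knockdown over wildtype. Without an array, a group is read from 2 samples.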
